A study of Arabidopsis thaliana with 16 samples.

Results

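Transcript levels of 10 genes of the jasmonate pathway were followed in whole rosettes of Arabidopsis thaliana that were moved to high light. The genes are OPR3, LOX2 and AOS of jasmonate synthesis, the repressor genes JAZ1, JAZ2, JAZ5, JAZ9 and JAZ10, the transcription factor gene MYC2, and ST2A, which encodes a sulfotransferase of jasmonate turnover. They were listed by locus and found through the symbols and accessions of the authors' annotation. Each matched 1 probe set, so 10 of the 26581 loci that have a probe set of their own are described. JAZ2 and JAZ9 appear in the annotation as TIFY10B and TIFY7, and the RefSeq gene table gives the JAZ names as synonyms. The 59 other pathway genes that were listed are counted beside them.

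Jasmonates are lipid-derived hormones, best known in leaves for their part in the response to wounding and chewing insects. Lipoxygenases and allene oxide synthase start their synthesis in the plastid, OPR3 acts in the peroxisome, and JAR1 joins the product to isoleucine to give the active hormone. The receptor COI1 binds that hormone together with a JAZ repressor, the repressor is degraded, and MYC2 and its relatives are freed to activate their targets, among which are the JAZ genes themselves.

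The genotypes were a knockout of CML49 (cml49), which encodes a calmodulin-like protein, a knockout of SAP3 (sap3), which encodes a stress-associated zinc-finger protein, and the wild type Col-0 (WT). In every group, light was 80 to 100 µmol (of photons, per square metre and second) over 3 weeks of growth and 8 µmol over the next 10 days. They were harvested after a move to 800 µmol (high light, HL) or while still at 8 µmol (low light, LL). The move lasted 60 min by the titles and the design text but 10 min by the treatment protocol, and which is right could not be settled. Single-replicate arrays numbered 3 for each of sap3 in HL, sap3 in LL, WT in HL and WT in LL, with 15 plants behind each array. A single pooled array, made from 3 replicates and 45 plants, stood for each of cml49 in HL, cml49 in LL, WT in HL and WT in LL. The alleles and the insertion sites of the knockouts are not given in the sources used here. In whole rosettes, fewer cells of a type and less RNA per cell cannot be told apart.

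Values are deposited log2 signals from Affymetrix gene arrays, on which a log2 difference of 1 is a fold of 2. Array medians lay between 4.37 and 4.41, and precision is limited by how few arrays a group has. The 4 leaf markers had log2 signals of 10.15 to 13.40 in the 16 arrays, the 5 flower markers 1.16 to 2.93 and 4 of the 5 root markers 1.93 to 3.99, with PYK10 at 7.90 to 9.31. CML49 had 4.23 in HL and 3.97 in LL in the arrays labelled as cml49 pools, against 3.30 in HL and 2.77 in LL in the WT pools, so it was not lower where it is labelled as disrupted. For CML49 the single-replicate WT arrays had 4.14 to 4.54. The cml49 HL pool lay within that range, the cml49 LL pool below it and both WT pools further below. No source used here places the CML49 probes relative to the insertion.

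In 3 single-replicate arrays, genes that respond to light had levels typical of the opposite light label. A light score was computed over 249 probe sets that both pool comparisons put at least 2 log2 units higher (163) or lower (86) in HL. It was the median of their positions on a scale from 0, the mean of the LL pools, to 1, the mean of the HL pools, and no jasmonate gene was used. The score was 0.066 in the array labelled WT_HL_2 (WT, HL, replicate 2), 0.03 in sap3_HL_3 and 0.955 in sap3_LL_2. The other HL arrays scored 0.918 to 0.998 and the other LL arrays 0.028 to 0.057. HSP90.1, a heat-inducible chaperone gene that is part of this score, had 3.62 in WT_HL_2 and 3.17 in sap3_HL_3 but 11.09 in sap3_LL_2. Results are therefore given over the 9 arrays without these 3, which leaves 2 arrays for each of sap3 in HL, sap3 in LL and WT in HL and 3 for WT in LL, and over all 12 as labelled. The arrays were set apart on measured values, so p-values over the 9 arrays describe those arrays.

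Over the 9 arrays, SAP3 was lower in every sap3 array than in every WT array at the same light. It had 5.06 and 5.28 in sap3 against 6.14 and 6.48 in WT in HL, and 4.21 and 4.05 in sap3 against 4.85, 4.84 and 5.14 in WT in LL. Within sap3, SAP3 was thus still higher in HL than in LL, and its HL values lay within or above the WT LL range. Between sap3 and WT the differences were -1.14 ± 0.19 (SE) in HL (limma adjusted p = 0.549) and -0.81 ± 0.17 in LL (adjusted p = 0.475), each with an unadjusted p under 0.05. Over the 12 arrays as labelled the groups overlapped, with differences of -0.83 in HL (adjusted p = 1) and 0.14 in LL (adjusted p = 0.993). Among the arrays set apart, WT_HL_2 had 3.94 and sap3_HL_3 had 3.74, both below the 2 sap3 LL arrays kept and further below the WT LL arrays, while sap3_LL_2 had 6.98, above the WT HL arrays. In WT_HL_2 and sap3_LL_2 the SAP3 level was thus nearest to the group that has both the other genotype and the other light, and in sap3_HL_3 to sap3 in LL.

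The first question was whether the genes respond to the step in light. Over the 9 arrays, MYC2, the 3 synthesis genes and 4 of the 5 JAZ genes rose in HL. Averaged over sap3 and WT, the fold ran from 1.41 for JAZ10 to 3.64 for JAZ9, and JAZ2 and ST2A did not pass the test. These were 8 of the 10 genes with a limma adjusted p (Benjamini-Hochberg over 28403 probe sets) under 0.05, where 7.76% of all probe sets were called higher. Pooled over both genotypes, HL and LL arrays did not overlap for 7 of the 10 (all but JAZ2, JAZ10 and ST2A), against 8.72%. Within sap3, 6 of the 10 rose (OPR3, LOX2, AOS, MYC2, JAZ5 and JAZ9), against a background of 4.09%, and the arrays of 9 did not overlap, against 21%. Within WT, 4 of the 10 rose (OPR3, MYC2, JAZ5 and JAZ9), against 4.99%, and the arrays of 8 did not overlap, against 18.4%. The median log2 difference of the 10 genes was 1.04 in sap3 and 0.75 in WT, and that of all probe sets was -0.03 in sap3 and -0.02 in WT. As the members were chosen with earlier results of these data known, these shares are no test of the set.

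With all 12 arrays as labelled, 0 of the 10 genes and 0% of the 28403 probe sets had an adjusted p under 0.05 in sap3, in WT or in their average. At an unadjusted limma p under 0.05 there were 1 of the 10 genes in sap3, 0 in WT and 3 in the average. The same threshold was passed by 891 probe sets in sap3, 1751 in WT and 2185 in the average. Non-overlapping groups remained for JAZ1 in sap3 (background 2.94%) and JAZ5 in WT (background 6.29%), and for no gene in the average (background 0.0951%). The direction was the same as over the 9 arrays for all 10 genes in sap3 and 9 in WT, with a median log2 difference of 0.62 in sap3 and 0.52 in WT. JAZ2 in WT was at -0.03 over the 12 arrays and at 0.07 over the 9.

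**Figure D1:**
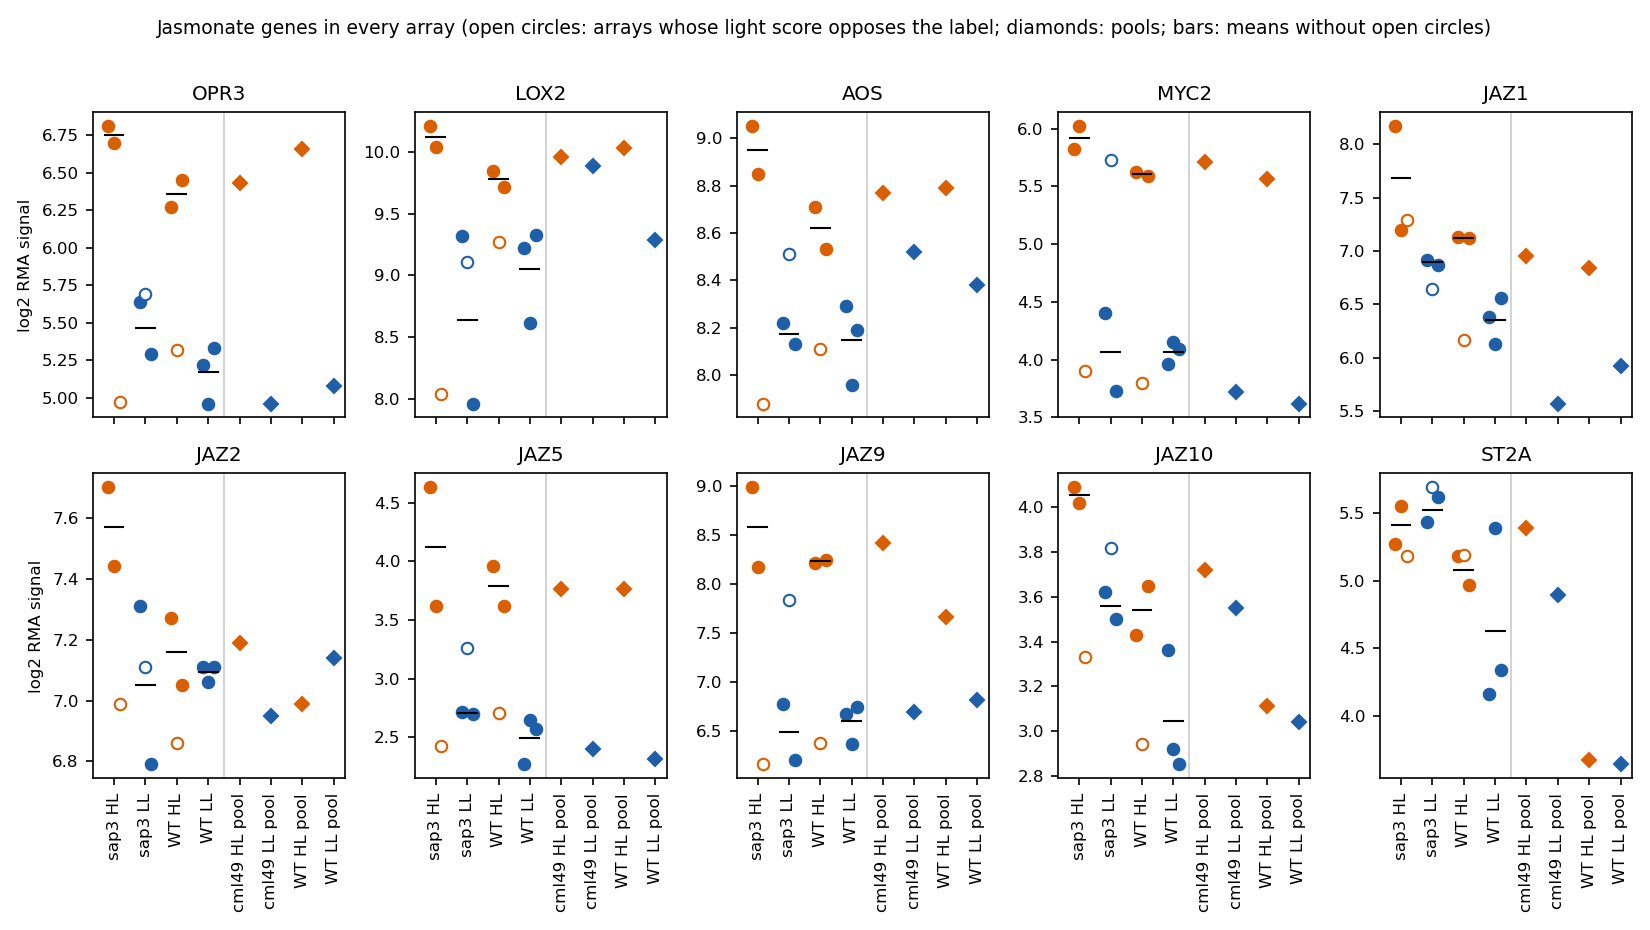
Log2 RMA signal (vertical axis) of the 10 genes in each array, by genotype and light (horizontal axis); orange is HL, blue is LL, diamonds are pools, open circles are the 3 arrays whose light score opposes their label, and bars are means without the open circles. For MYC2, the filled HL circles lie between 5.59 and 6.02 and the filled LL circles between 3.73 and 4.40, with open HL circles at 3.80 and 3.90.

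Among the synthesis genes, OPR3 encodes the peroxisomal reductase that acts on the plastid product (AT2G06050, chromosome 2, minus strand, probe set from 2359114 to 2362302; no source used here names the genome build of these positions). It had log2 signals of 6.81 and 6.70 in HL and 5.64 and 5.29 in LL in sap3, and 6.27 and 6.45 in HL and 5.22, 4.96 and 5.33 in LL in WT. The 4 HL arrays all lay above the 5 LL arrays. OPR3 rose by a log2 difference of 1.29 ± 0.19 (SE) in sap3 (adjusted p = 0.00198) and 1.19 ± 0.17 in WT (adjusted p = 0.00153). The arrays set apart had 5.32 in WT_HL_2, 4.97 in sap3_HL_3 and 5.69 in sap3_LL_2, all below the HL range, and over the 12 arrays the differences were 0.62 in sap3 (adjusted p = 0.994) and 0.84 in WT (adjusted p = 0.713).

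LOX2 encodes the plastid lipoxygenase that makes the bulk of leaf jasmonate after wounding (AT3G45140, chromosome 3, plus strand, 16525410 to 16529352). Its log2 signal was 10.21 and 10.04 in HL and 9.32 and 7.96 in LL in sap3, and 9.85 and 9.72 in HL and 9.22, 8.61 and 9.33 in LL in WT. The groups did not overlap, but the 2 sap3 LL arrays lay far apart. LOX2 rose by 1.48 ± 0.38 in sap3 (adjusted p = 0.0415), while the WT difference of 0.73 ± 0.35 did not pass (adjusted p = 0.273). Averaged over both genotypes the rise was 1.11 ± 0.26 (adjusted p = 0.0151). The array sap3_HL_3 had 8.04, next to sap3_LL_3 at 7.96, and WT_HL_2 had 9.27 and sap3_LL_2 9.11. Over the 12 arrays the differences were 0.63 in sap3 (adjusted p = 0.994) and 0.56 in WT (adjusted p = 0.781).

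AOS encodes allene oxide synthase, which follows lipoxygenase in the plastid (AT5G42650, chromosome 5, minus strand, 17097595 to 17099395). It had 9.05 and 8.85 in HL and 8.22 and 8.13 in LL in sap3, and 8.71 and 8.53 in HL and 8.29, 7.96 and 8.19 in LL in WT. Again no HL array lay within the LL range. AOS rose by 0.78 ± 0.17 in sap3 (adjusted p = 0.0198), and its WT difference of 0.47 ± 0.15 had an adjusted p of 0.0978. The averaged rise was 0.62 ± 0.11 (adjusted p = 0.00414), a fold of 1.54. The arrays set apart had 8.11 in WT_HL_2, 7.88 in sap3_HL_3 and 8.51 in sap3_LL_2, the last just below the lowest HL array, and the 12-array differences were 0.31 in sap3 (adjusted p = 0.994) and 0.30 in WT (adjusted p = 0.774).

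The calls on LOX2 and AOS rested on few arrays. The sap3 call on LOX2 was lost without any of sap3_HL_1, sap3_HL_2, sap3_LL_3, WT_HL_1, WT_HL_3, WT_LL_1 or WT_LL_3, with adjusted p between 0.0528 and 0.196, and its size fell to 0.81 without sap3_LL_3. That on AOS was lost without sap3_HL_1 (0.132), sap3_LL_1 (0.0622) or sap3_LL_3 (0.105). The averaged call on LOX2 was lost without sap3_HL_1 (0.0596) or WT_HL_1 (0.0547). No array left out ended a call on OPR3.

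MYC2 encodes the basic helix-loop-helix factor at the head of the jasmonate response (AT1G32640, chromosome 1, minus strand, 11798810 to 11800988). Its log2 signal was 5.82 and 6.02 in HL and 4.40 and 3.73 in LL in sap3, and 5.62 and 5.59 in HL and 3.96, 4.15 and 4.09 in LL in WT. Every HL array exceeded every LL array by more than 1. MYC2 rose by 1.86 ± 0.21 in sap3 (adjusted p = 0.000519) and by 1.54 ± 0.19 in WT (adjusted p = 0.000744), folds of 3.62 and 2.90. In the arrays set apart it followed the light score, with 3.80 in WT_HL_2 and 3.90 in sap3_HL_3, inside the LL range, and 5.73 in sap3_LL_2, inside the HL range. Over the 12 arrays the differences were therefore 0.63 ± 0.64 in sap3 (adjusted p = 0.994) and 0.94 ± 0.64 in WT (adjusted p = 0.724). No array left out ended the call over the 9 arrays.

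The JAZ genes encode repressors that bind MYC2 and are degraded in the presence of the hormone. JAZ9 (AT1G70700, chromosome 1, plus strand, 26654768 to 26657064) had 8.99 and 8.18 in HL and 6.78 and 6.21 in LL in sap3, and 8.22 and 8.25 in HL and 6.68, 6.37 and 6.75 in LL in WT. All HL arrays lay above all LL arrays by more than 1. It rose by 2.09 ± 0.28 in sap3 (adjusted p = 0.00121) and 1.64 ± 0.25 in WT (adjusted p = 0.00244), and no array left out ended the call. WT_HL_2 had 6.38, sap3_HL_3 had 6.16 and sap3_LL_2 had 7.84. The 12-array differences were 0.83 in sap3 (adjusted p = 0.994) and 1.02 in WT (adjusted p = 0.723).

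JAZ5 (AT1G17380, chromosome 1, minus strand, 5955488 to 5957212) had 4.63 and 3.62 in HL and 2.72 and 2.70 in LL in sap3, and 3.96 and 3.62 in HL and 2.27, 2.65 and 2.57 in LL in WT. The groups did not overlap, although all but sap3_HL_1 were below the array medians. JAZ5 rose by 1.42 ± 0.29 in sap3 (adjusted p = 0.0143) and 1.29 ± 0.26 in WT (adjusted p = 0.0125). The WT call was lost without WT_HL_1 (adjusted p = 0.123) and the sap3 call without sap3_HL_1 (0.0686), sap3_LL_1 (0.0643) or sap3_LL_3 (0.0772), while the averaged call held each time. JAZ5 had 2.71 in WT_HL_2, 2.43 in sap3_HL_3 and 3.26 in sap3_LL_2, and the 12-array differences were 0.67 in sap3 (adjusted p = 0.994) and 0.93 in WT (adjusted p = 0.713).

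JAZ1 (AT1G19180, chromosome 1, plus strand, 6622094 to 6623620) had 8.17 and 7.20 in HL and 6.92 and 6.87 in LL in sap3, and 7.13 and 7.12 in HL and 6.38, 6.13 and 6.56 in LL in WT. The groups did not overlap in either genotype. The differences of 0.79 ± 0.27 in sap3 (adjusted p = 0.131) and 0.77 ± 0.25 in WT (adjusted p = 0.0976) did not pass, and their average of 0.78 ± 0.19 did (adjusted p = 0.0177). Without sap3_HL_1 or sap3_HL_2 the WT difference passed (0.0177 each), and without sap3_HL_2 so did the sap3 difference, at 1.28 (0.00967). The averaged call was lost without sap3_LL_3 (0.0545), WT_HL_1 (0.0569) or WT_HL_3 (0.0571). In sap3_HL_3, JAZ1 had 7.29, inside the HL range, and it had 6.17 in WT_HL_2 and 6.64 in sap3_LL_2. Over all 12 arrays it was the member with an unadjusted p under 0.05 in sap3, at a difference of 0.74 (adjusted p = 0.994), against 0.45 in WT (adjusted p = 0.717).

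JAZ10 (AT5G13220, chromosome 5, plus strand, 4218888 to 4220883) had 4.09 and 4.02 in HL and 3.62 and 3.50 in LL in sap3, and 3.43 and 3.65 in HL and 3.36, 2.92 and 2.85 in LL in WT. The groups did not overlap within a genotype, but the WT HL and sap3 LL arrays lay among each other. Its differences were 0.50 ± 0.19 in sap3 (adjusted p = 0.184) and 0.50 ± 0.18 in WT (adjusted p = 0.131), and the averaged rise was 0.50 ± 0.13 (adjusted p = 0.0291). The averaged call was lost on leaving out any array except WT_LL_1, at adjusted p between 0.0511 and 0.115, and without WT_LL_1 the WT difference passed, at 0.66 (0.0425). Of the opposing arrays, JAZ10 had 2.94 in WT_HL_2, 3.33 in sap3_HL_3 and 3.82 in sap3_LL_2, and over the 12 arrays the averaged difference was 0.23 (adjusted p = 0.681).

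JAZ2 (AT1G74950, chromosome 1, minus strand, 28148575 to 28150444) was the JAZ gene among the members that was called in no comparison. It had 7.70 and 7.44 in HL and 7.31 and 6.79 in LL in sap3, and 7.27 and 7.05 in HL and 7.11, 7.06 and 7.11 in LL in WT. The groups overlapped in WT and not in sap3. The differences were 0.52 ± 0.20 in sap3 (95% confidence interval 0.08 to 0.96, adjusted p = 0.166) and 0.07 ± 0.18 in WT (-0.33 to 0.47, adjusted p = 0.896). JAZ2 had 6.86 in WT_HL_2, 6.99 in sap3_HL_3 and 7.11 in sap3_LL_2.

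ST2A, whose product adds sulfate to hydroxylated jasmonate, was the other member with no call (AT5G07010, chromosome 5, minus strand, 2174678 to 2176106). It had 5.27 and 5.55 in HL and 5.43 and 5.62 in LL in sap3, and 5.18 and 4.97 in HL and 4.16, 5.39 and 4.34 in LL in WT. HL and LL overlapped in both genotypes, and WT_LL_2 stood above the other WT LL arrays by more than 1. The differences were -0.12 ± 0.34 in sap3 (-0.87 to 0.64, adjusted p = 0.906) and 0.45 ± 0.31 in WT (-0.25 to 1.14, adjusted p = 0.492). Without WT_LL_2 the WT difference was 0.83 (adjusted p = 0.0256). ST2A had 5.19 in WT_HL_2, 5.18 in sap3_HL_3 and 5.69 in sap3_LL_2, the highest value of the gene.

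**Figure D2:**
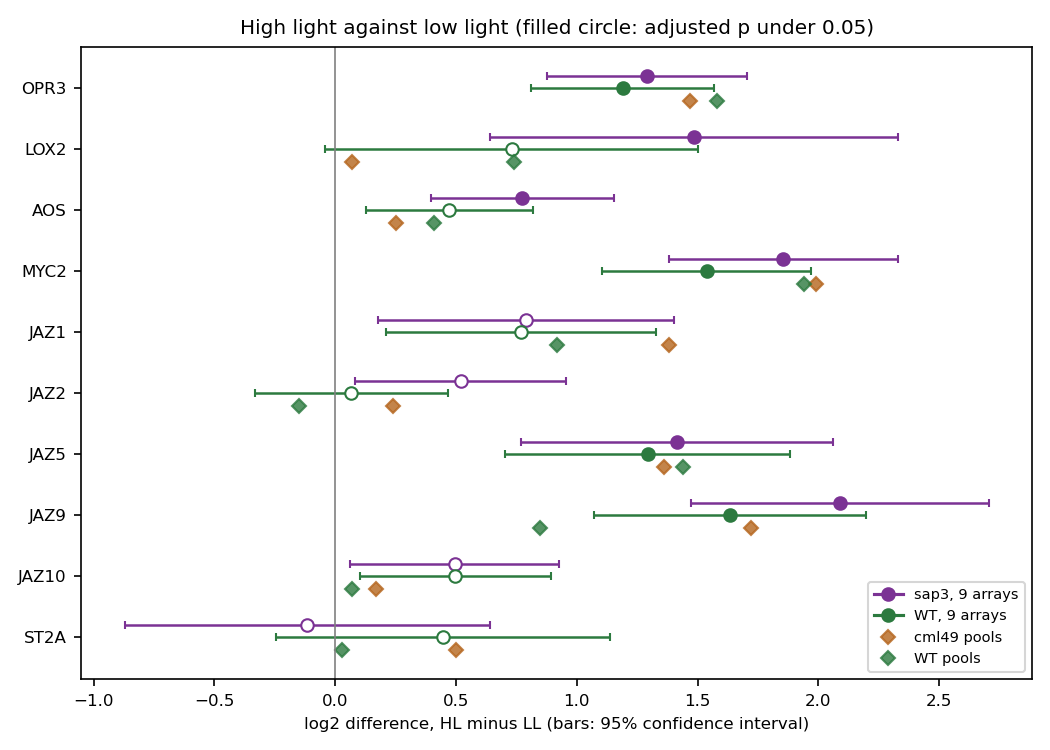
Log2 difference HL minus LL (horizontal axis) of the 10 genes (vertical axis) in sap3 and WT over the 9 arrays, with 95% confidence intervals from limma, and in the cml49 and WT pools (diamonds, no interval); filled circles have an adjusted p under 0.05. MYC2 stands at 1.86 in sap3 and 1.54 in WT, while ST2A lies at -0.12 in sap3 and 0.45 in WT with intervals across 0.

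The arrays set apart can also be read gene by gene, against the mean of the 4 HL and of the 5 LL arrays. WT_HL_2 was nearer to the LL mean for 9 of the 10 genes, all but ST2A, and sap3_HL_3 for 8, all but JAZ1 and ST2A. The array sap3_LL_2 was nearer to the HL mean for 5 (AOS, JAZ9, JAZ10, MYC2 and ST2A) and nearer to the LL mean for the other 5 (OPR3, LOX2, JAZ1, JAZ2 and JAZ5). By this rule its jasmonate genes were split, where its light score of 0.955 was that of an HL array. For JAZ2, JAZ10 and ST2A, however, the HL and LL ranges overlapped. Of the rest in sap3_LL_2, MYC2 lay inside the HL range and LOX2 and JAZ1 inside the LL range. OPR3, AOS, JAZ5 and JAZ9 lay between the ranges. The rule was applied to the members only, so no share of all probe sets stands beside these counts. As given above, SAP3 also lay nearer to the other genotype in WT_HL_2 and sap3_LL_2. That is 1 gene, whose level also moved with light. The touch gene TCH4 did not lie with the same groups. It had 5.99 in WT_HL_2, against 7.15 and 8.34 in sap3 in LL. In sap3_LL_2 it had 8.21, against 5.56 and 5.86 in WT in HL. No array was relabelled, and the cause of the opposing labels was not tested.

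The pools gave the same comparison from other arrays, with 1 array a group and so no test. A log2 difference of at least 1 in HL over LL was reached by 5 of the 10 genes in cml49, where 3.45% of all probe sets did so, and by 3 in WT, against 4.39%. MYC2 had 5.71 in HL and 3.72 in LL in the cml49 pools, a difference of 1.99, and 5.56 in HL and 3.62 in LL in the WT pools, a difference of 1.94. OPR3 differed by 1.47 in cml49 and 1.58 in WT, and JAZ5 by 1.36 in cml49 and 1.44 in WT. These 3 genes passed the size in both pairs of pools.

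JAZ9 passed it in the cml49 pools alone, with 8.42 in HL and 6.70 in LL (1.72), against 7.67 in HL and 6.82 in LL in the WT pools (0.85). The same held for JAZ1, with 6.95 in HL and 5.57 in LL in cml49 (1.38) and 6.84 in HL and 5.92 in LL in WT (0.92). LOX2 had 9.96 in HL and 9.89 in LL in cml49, a difference of 0.07, and 10.03 in HL and 9.29 in LL in WT, a difference of 0.74. The differences of AOS, JAZ2, JAZ10 and ST2A ran from 0.17 to 0.50 in cml49 and from -0.15 to 0.41 in WT. The median over the 10 genes was 0.93 in cml49 and 0.80 in WT, while that over all probe sets was -0.02 in cml49 and 0 in WT.

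The rest of the pathway moved in part. Of the 59 other genes, 15 rose and 3 fell in HL over the 9 arrays averaged over sap3 and WT (background 7.76% higher and 7.36% lower), and 41 were called in no comparison. Within sap3, 11 rose and 2 fell (4.09% and 3.47%), and within WT 8 rose and 1 fell (4.99% and 4.14%). The median averaged difference of the 59 genes was 0.13, below that of the 10 genes at 0.94. Both lists were chosen with earlier results of these data known, so this contrast can reflect the choice. None of the 59 was called over the 12 arrays. At an unadjusted limma p under 0.05 in the 12-array average there were 7 of the 59, and 2185 of the 28403 probe sets.

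Of the 17 other synthesis genes, 5 rose and 1 fell in the average. LOX3 and LOX4, further plastid lipoxygenase genes, rose by 1.24 ± 0.20 (adjusted p = 0.00197) and 1.07 ± 0.21 (adjusted p = 0.00569). LOX3 had 7.66 and 7.89 in HL and 6.94 and 6.02 in LL in sap3, and 7.38 and 7.15 in HL and 6.41, 5.75 and 6.10 in LL in WT, without overlap, whereas the HL and LL arrays of LOX4 overlapped in sap3. Among the genes of the later steps, OPCL1, which activates the OPR3 product for peroxisomal oxidation, rose by 1.17 ± 0.14 (adjusted p = 0.000212), and the conjugating enzyme gene JAR1 by 0.83 ± 0.12 (adjusted p = 0.000709). JASSY, whose product exports the precursor from the plastid, rose by 0.43 ± 0.12 (adjusted p = 0.0379), and the acyl-CoA oxidase gene ACX5 fell by 0.48 on the log2 scale (adjusted p = 0.0176). The other 11 synthesis genes were called in no comparison, with averaged differences of -0.44 to 0.70.

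Of the 11 other turnover genes, 3 rose and none fell. IAR3 and ILL6 encode amidohydrolases that split jasmonate from amino acids, and rose by 0.84 ± 0.16 (adjusted p = 0.00591) and 0.57 ± 0.15 (adjusted p = 0.0288). JOX2, which encodes a jasmonate hydroxylase, rose by 0.88 ± 0.22 (adjusted p = 0.0215), from low signals, with 3.61 and 3.17 in HL and 2.79 and 1.76 in LL in sap3 and 2.41 and 3.01 in HL and 2.04, 1.91 and 2.23 in LL in WT. For all 3 genes HL and LL overlapped over the 9 arrays.

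Of the 10 other repressor genes, JAZ6 rose by 0.90 ± 0.12 (adjusted p = 0.000453) and JAZ3 fell by 0.57 on the log2 scale (adjusted p = 0.00346). JAZ3 had 5.97 and 5.76 in HL and 6.39 and 6.38 in LL in sap3, and 5.91 and 5.92 in HL and 6.46, 6.63 and 6.52 in LL in WT. Its HL arrays all lay below its LL arrays, opposite to the 4 JAZ genes among the members that rose. In the pools JAZ3 had 6.06 in HL and 6.80 in LL in cml49, and 5.41 in HL and 6.76 in LL in WT. The other 8 repressor genes were called in no comparison, with averaged differences of -0.43 to 0.68.

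Of the 9 other genes of reception and transcription, 3 rose. MYC4, a close relative of MYC2, had 6.72 and 6.62 in HL and 4.53 and 3.98 in LL in sap3, and 6.77 and 6.93 in HL and 4.77, 4.00 and 3.84 in LL in WT. Its averaged rise of 2.53 ± 0.20 (adjusted p = 1.56e-05) exceeded those of all 10 members, and it followed the light score in the arrays set apart, with 4.45 in WT_HL_2, 4.15 in sap3_HL_3 and 6.65 in sap3_LL_2. JAM2, which encodes a repressing relative of MYC2, rose by 0.56 ± 0.11 (adjusted p = 0.00503), and COI1 by 0.42 ± 0.11 (adjusted p = 0.0307). Of the 12 listed targets, 3 rose and 1 fell. The chlorophyllase gene CLH1 rose by 1.72 ± 0.25 (adjusted p = 0.001) and the aminotransferase-family genes CORI3 and TAT3 by 1.52 ± 0.21 (adjusted p = 0.000691) and 1.13 ± 0.24 (adjusted p = 0.0102). For TAT3 the average joins unequal values, since it had 5.76 and 5.96 in HL and 4.38 and 3.46 in LL in sap3, and 4.30 and 4.17 in HL and 4.14, 3.28 and 4.35 in LL in WT, where HL and LL overlapped. TAT3 rose by 1.94 ± 0.36 in sap3 (adjusted p = 0.00827), while its WT difference of 0.31 ± 0.33 did not pass (adjusted p = 0.68). The difference between these light changes, 1.63 ± 0.49, did not pass the adjusted test either (95% confidence interval 0.55 to 2.71, adjusted p = 1.00). ANAC055, which encodes a NAC factor downstream of MYC2, fell by 1.35 on the log2 scale (adjusted p = 0.00179). In the pools ANAC055 differed by -0.19 in cml49 and -2.31 in WT. The other 8 targets were called in no comparison, with averaged differences of -0.28 to 0.40. Of these, VSP1, VSP2, THI2.1, PDF1.2, ORA59 and ERF1 had low signals in every array, from 0.98 to 2.75. ANAC019 had 3.67 to 5.90 and JR1 6.42 to 7.28.

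**Figure D3:**
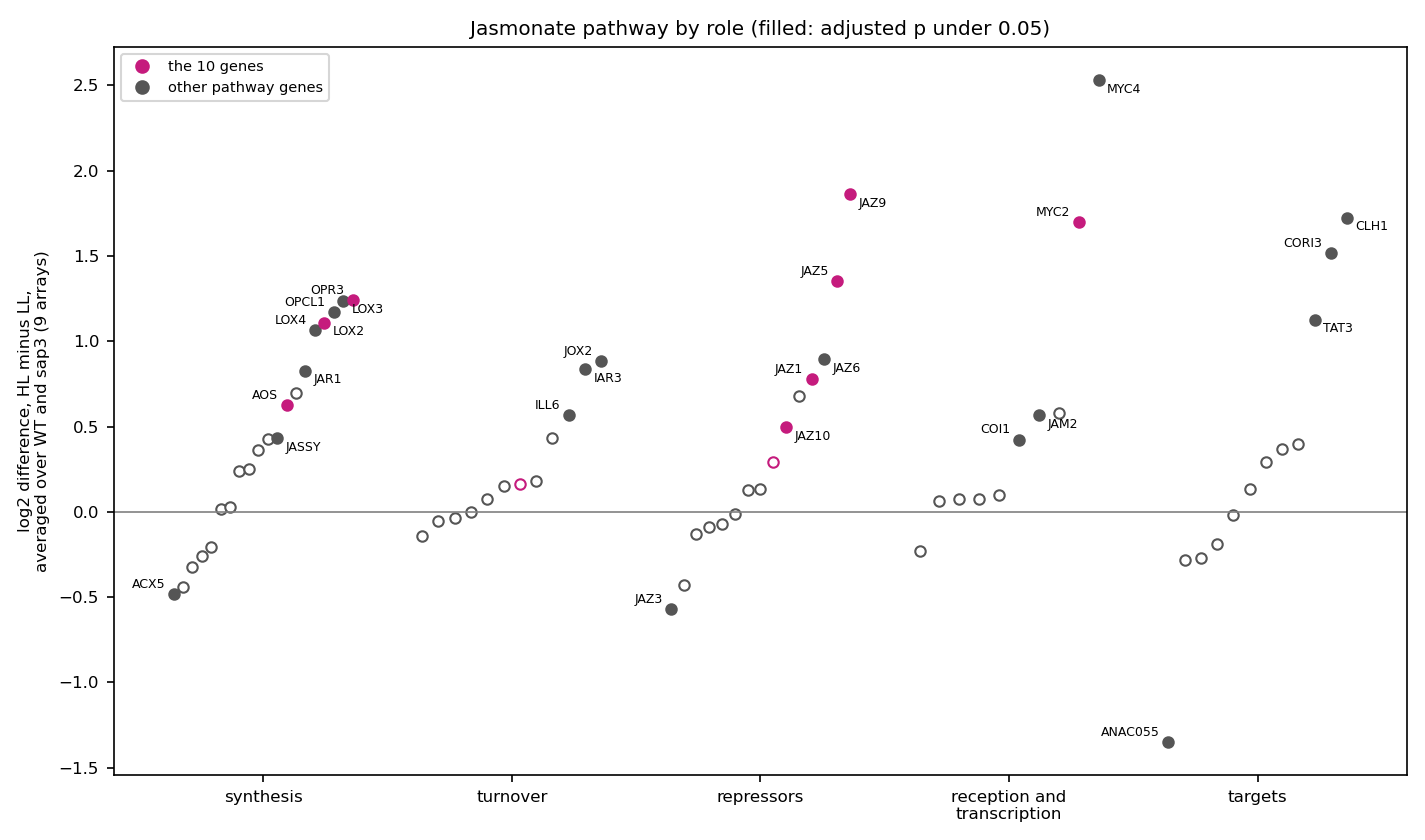
Log2 difference HL minus LL averaged over sap3 and WT in the 9 arrays (vertical axis) for the 10 genes and the 59 other pathway genes, by role (horizontal axis); filled circles have a limma adjusted p under 0.05 and are named. MYC4 is highest at 2.53, ANAC055 is lowest at -1.35, and the members run from ST2A at 0.17 to JAZ9 at 1.86.

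Heat genes moved with light in the same arrays. Over the 9 arrays, all 6 listed heat genes rose in HL in sap3 and in WT, by medians of 6.15 in sap3 and 5.87 in WT. All 6 are part of the light score, so their values helped to set the 3 arrays apart. With the 12 arrays as labelled, 0 of the 6 were called, with medians of 1.73 in sap3 and 4.00 in WT. Over the 9 arrays, 0 of the 6 listed touch and wound genes rose in sap3 and 2 in WT (TCH2 by 0.98 and ZAT10 by 1.74). Their medians were 0.10 in sap3 and 0.85 in WT. The part of either in the jasmonate values was not tested.

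The second question was whether the level or the light response differs between the sap3 and WT labels. No member differed between sap3 and WT by the adjusted limma test in HL, in LL or in the size of the light change, over the 9 arrays or the 12. The background was 0.00352% of probe sets called in HL over the 9 arrays (1 probe set, which was lower in sap3) and 0% in the others. At an unadjusted p under 0.05 over the 9 arrays there were 1 of the 10 genes in HL, 2 in LL and 0 in the difference of the light change, while 1272, 1706 and 1192 probe sets passed. Over the 12 arrays those counts were 1, 2 and 0 of the 10, and 812, 1283 and 744 probe sets. The comparisons share arrays with each other and with the light comparisons.

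In HL over the 9 arrays, all 10 genes had a higher mean in sap3 than in WT. The differences ran from 0.32 (MYC2) to 0.56 (JAZ1), with a median of 0.35 where the median of all probe sets was 0. The arrays of 8 of the 10 did not overlap, with JAZ5 and JAZ9 as the exceptions, and 16.2% of all probe sets were higher without overlap. JAZ10 was the member at an unadjusted p under 0.05, with 4.09 and 4.02 in sap3 against 3.43 and 3.65 in WT, a difference of 0.52 ± 0.19 (95% confidence interval 0.08 to 0.95, adjusted p = 0.996). The heat list was also above 0 in this comparison for 6 of 6 genes (median 0.19) and the touch and wound list for 6 of 6 (median 0.38), and their part was not tested. Over the 12 arrays 9 of the 10 genes had a higher mean in sap3, with a median of 0.19, LOX2 was at -0.18, and JAZ1 alone did not overlap (background 3.97%).

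In LL over the 9 arrays, 6 of the 10 genes had a higher mean in sap3 than in WT. The median difference was 0.12, where that of all probe sets was 0.005, and LOX2 was lowest at -0.41. Higher in sap3 without overlap were 4 of the 10 genes (JAZ1, JAZ5, JAZ10 and ST2A), where 10.5% of all probe sets were. ST2A had 5.43 and 5.62 in sap3 against 4.16, 5.39 and 4.34 in WT, a difference of 0.90 ± 0.31 (0.20 to 1.59, adjusted p = 0.722). JAZ10 had 3.62 and 3.50 against 3.36, 2.92 and 2.85, a difference of 0.52 ± 0.18 (0.12 to 0.91, adjusted p = 0.722). JAZ1 differed by 0.54 ± 0.25 (-0.02 to 1.10, adjusted p = 0.839), and MYC2 by less than 0.01 in size (-0.44 to 0.43). In sap3_LL_2 the genes had 5.69 (ST2A), 3.82 (JAZ10) and 6.64 (JAZ1), and over the 12 arrays the differences were 0.95, 0.60 and 0.45, none of them called, with the same 4 genes free of overlap (background 5.01%).

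The touch and wound genes moved with the LL difference. All 6 had a higher mean in sap3, with a median of 1.45, and 5 of them did not overlap (background 10.5%). At an unadjusted limma p under 0.05 there were 5 of the 6, and 1706 of the 28403 probe sets, though 0 of the 6 passed the adjusted test. TCH4, a touch-inducible cell wall enzyme gene, had 7.15 and 8.34 in sap3 against 5.70, 5.22 and 5.80 in WT, a difference of 2.17 (adjusted p = 0.44). Their part in the LL values of JAZ1, JAZ10 and ST2A was not tested. The light scores were alike, at 0.055 and 0.028 in sap3 and 0.031, 0.031 and 0.057 in WT.

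The light change itself was larger in sap3 than in WT for 8 of the 10 genes over the 9 arrays, by a median of 0.21. None passed, and the intervals were wide. LOX2 changed by 1.48 in sap3 and 0.73 in WT, a difference of 0.75 (95% confidence interval -0.39 to 1.90), and MYC2 by 1.86 in sap3 and 1.54 in WT, a difference of 0.32 (-0.33 to 0.96). ST2A ran the other way, with -0.12 in sap3 and 0.45 in WT, a difference of -0.56 (-1.58 to 0.46). With all 12 arrays the difference for MYC2 was -0.31 (-2.30 to 1.68).

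**Figure D4:**
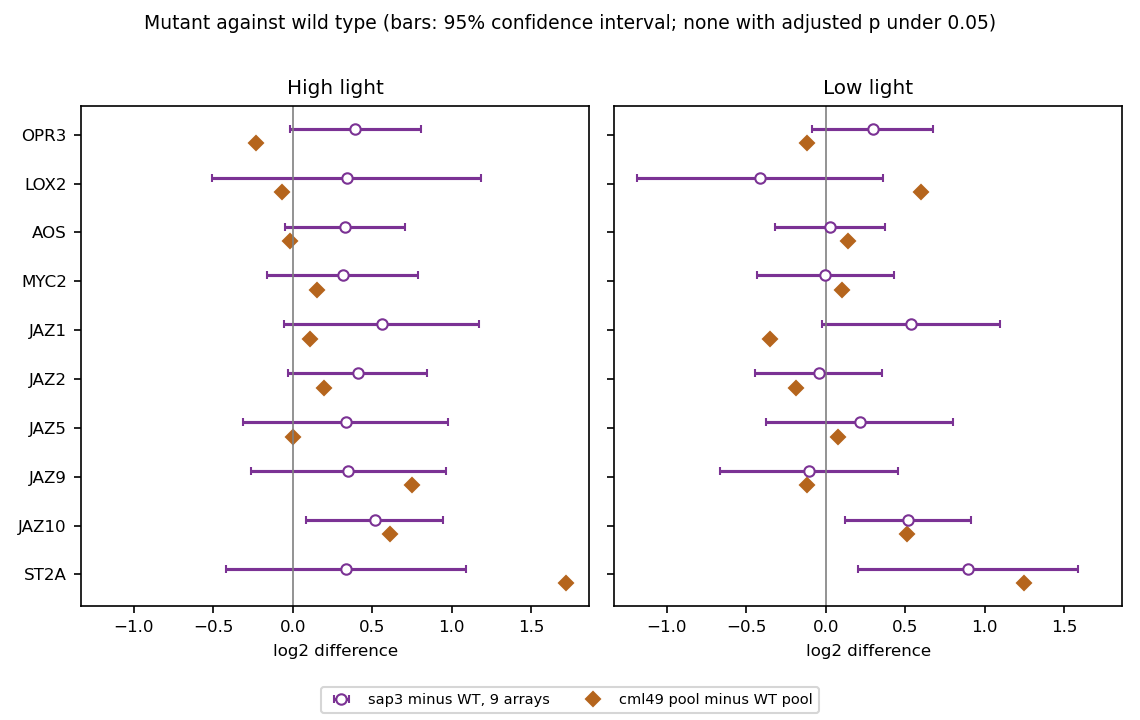
Log2 difference between mutant and WT (horizontal axis) of the 10 genes (vertical axis) in HL (left) and LL (right), for sap3 minus WT over the 9 arrays with 95% confidence intervals and for the cml49 pool minus the WT pool without interval. In HL the 10 sap3 differences lie between 0.32 and 0.56, and none in either panel has a limma adjusted p under 0.05.

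The cml49 pools differed from the WT pools by at least 1 for 1 of the 10 genes, which was ST2A, in HL (0.387% of all probe sets higher by that size) and in LL (0.753%). ST2A had 5.39 in HL and 4.89 in LL in the cml49 pools, against 3.67 in HL and 3.64 in LL in the WT pools, differences of 1.72 and 1.25. At the same light, the cml49 HL pool lay above the single-replicate WT HL arrays (5.18, 5.19 in WT_HL_2 and 4.97). The cml49 LL pool lay within the WT LL arrays (4.16, 5.39 and 4.34). Both WT pools lay below all 6 of these arrays. The other 9 genes differed by -0.23 to 0.75 in HL and by -0.35 to 0.60 in LL. For CML49, too, the WT pools lay below every single-replicate WT array. As CML49 itself was not lower in the cml49 pools, these are differences between labels. Both use the WT pools that the light comparison uses.

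The levels of MYC2, JAZ10 and LOX2 over all 16 arrays were set against those of every other locus with a mean at or above the median, by the root mean square distance between centred profiles. For MYC2 the nearest 5 of 13575 loci were DTX35 at 0.19, AT5G20190 at 0.196, AT3G12050 at 0.215, HSP60 at 0.223 and APX1 at 0.224, with a median over all loci of 0.943. For LOX2 they were PAO2 at 0.262, CYP83B1 at 0.271, AT3G61280 at 0.318, AT5G49900 at 0.325 and AT5G14700 at 0.326, with a median of 0.695. None of these 10 loci was on the pathway lists. For JAZ10, whose own spread was 0.373, the nearest were AT1G23340 at 0.215, UMAMIT12 at 0.231, AT1G24148 at 0.236, APS3 at 0.236 and EMB1873 at 0.24, with a median of 0.44. The likeness of MYC2 is one over the light step, since its 16 values fall into high and low arrays.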

How the data were processed

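The deposited log2 values of 16 Affymetrix gene arrays were made by the authors with RMA in Affymetrix Expression Console, per the submitters' processing notes. RMA corrects background, normalises by quantiles and summarises probes, so absolute shifts of whole arrays are removed. Versions and genome build are not given in the sources used here. Of 28501 probe sets, 28403 in the main category were analysed. The deposited probe count per probe set (17 to 30 for the members) and the positions come from the authors' annotation, and symbols also from RefSeq. All 97 listed genes had a probe set, and no member's probe set is marked as cross-hybridising. The 16 signal columns of a workbook were not used.

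Single-replicate arrays were fitted with limma 3.58.1 in R 4.3.3 (4 group means, lmFit and eBayes, two-sided, Benjamini-Hochberg over all probe sets, adjusted p under 0.05), over 12 arrays as labelled and over 9. The model was also run on simulated data, with independent normal noise and the spread of the 9 arrays. That simulation held no opposing arrays, so it cannot speak for the fits over the 12 arrays as labelled. Pools were compared by the log2 difference, with a size of at least 1. P-values measure the spread between samples of 15 plants each.

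All 10 members are reported. Of the other pathway genes, up to 6 per list called over the 9 arrays are named. Also named are HSP90.1 from the light score, the knockout genes as checks, and for MYC2, JAZ10 and LOX2 the 5 loci nearest in profile. TCH2, ZAT10, TCH4, PYK10 and the uncalled targets were named after their values were seen. The members and the lists (pathway, touch and wound, heat, leaf, root, flower) were chosen with earlier results of these data known. Alternatives were priors, array weights, quantile normalisation, median centring, removal of dim probe sets, a replicate block, only the groups compared, and leaving out each array.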

Additional observations from a re-analysis of the deposited data

How the results depend on the processing

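Leaving out the 3 arrays whose light score opposes their label gave 6 members called for light in sap3, 4 in WT and 8 in the average, against 0 in each over the 12 arrays. Over the 9 arrays, leaving out each array gave 3 to 6 members in sap3, 3 to 5 in WT and 5 to 8 in the average, and all genotype, interaction and 12-array counts stayed at 0 under every alternative but the removal of those 3 arrays. With only the 2 groups compared, 3 were called in sap3. A size of at least 0.5 in the pools gave 6 members for light in WT and 3 for cml49 against WT in HL and in LL. These counts took either direction. No share of all probe sets was computed at that size, so they cannot be set against a background. Leaving out an HL array of the genotype reversed the uncalled ST2A in sap3 (-0.255 to 0.025, the last without sap3_HL_1) and JAZ2 in WT (-0.043 to 0.177, the first without WT_HL_1). A mean-dependent prior or removal of dim probe sets added AOS and JAZ1 in WT (adjusted p between 0.0225 and 0.0481); the removal took out JAZ5 and JAZ10. Deviations from the group means over the 12 arrays were correlated for the 18 pairs with the same replicate number (-0.633 to 0.527, 4 over 0.1). Among those 18 the lowest was WT_HL_2 with sap3_LL_2 and the highest sap3_HL_3 with sap3_LL_3. The 36 pairs with other numbers ran from -0.684 to 0.631, with 10 over 0.1. The medians were 0.026 for the same number and -0.0045 for other numbers. As the arrays set apart enter these deviations, the correlations cannot decide whether replicates go together over the 9 arrays. With the replicate block, 6 members were called in sap3, 4 in WT and 7 in the average, with LOX2 in sap3 at 0.066, JAZ10 in the average at 0.0541 and JAZ1 in sap3 at 0.0308. The causes were not tested. The leave-outs were run for the members only. Limits: groups of 2 or 3 arrays, set apart on measured values; JAZ5, JAZ10 and JOX2 sat at dim signals; positions lack a build.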
